A study of Saccharomyces cerevisiae with 9 samples.

Results

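The genes described here encode 8 chaperones and stress proteins of budding yeast: the small heat shock proteins HSP26 (YBR072W) and HSP42 (YDR171W), the disaggregases HSP104 (YLL026W) and HSP78 (YDR258C), the heat-induced genes HSP30 (YCR021C) and HSP31 (YDR533C), and the HSP90 genes HSP82 (YPL240C) and HSC82 (YMR186W). They were chosen by systematic name, as 8 of the 6942 features of the deposited table, and all 8 had a value on each array. The samples were 7 cultures of BY4741 wild type (WT) and 2 of ckb12, the same background without CKB1 and CKB2, which encode the regulatory subunits of the protein kinase CK2. Every culture was grown in rich YPD medium at 30°C and sampled before, and 30 min after, addition of NaCl to 0.7 M. Each 2-colour array set the salt-treated cDNA of 1 culture against its own unstressed cDNA, so each value is a log2 ratio, a change after salt and not a transcript level.

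Small heat shock proteins bind unfolding proteins without ATP and hold them in a state from which they can be refolded. Hsp104 is a ring-shaped ATPase that, with Hsp70 and its J-domain partners, pulls single chains out of aggregates, and Hsp78 is its relative in the mitochondrial matrix. Hsp90 acts later, on near-native clients such as kinases and transcription factors, with a changing set of co-chaperones. In yeast many chaperone genes are induced by the heat shock factor Hsf1, by the general stress factors Msn2 and Msn4, or by both.

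The labels put 1 WT and 1 ckb12 array in each of sets A and B. WT replicates 10, 11 and 12 carried the letters C, D and E, and the labels of WT replicates 1 and 2 gave no letter. One label field calls WT replicate 12 a mutant, whereas its title and genotype name WT, and it was kept as WT. Across features, which are not independent replicates, WT arrays correlated with each other at r between 0.884 and 0.977. Each array was centred, its median over features lying between -0.00118 and 0.00016. Whether the ckb12 strain was 1 clone is not given in the sources used here, and a ratio within a strain cannot show the deletion itself. The number of arrays limits the precision. Cultures were measured in bulk, so a change in every cell and a larger change in some cells cannot be told apart. No sequences were printed, because no table of promoters or proteins was at hand.

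In WT the small heat shock protein and disaggregase genes and HSP31 rose after salt, HSC82 fell, and HSP30 and HSP82 did not pass the test. By mean log2 ratio the order was HSP42, HSP26, HSP104, HSP78, HSP31, HSP30, HSP82 and HSC82. The WT ranges of HSP104, HSP78 and HSP31 overlapped, as did those of HSP30 and HSP82. On all 7 WT arrays HSP42 was the highest and HSP26 the second of these genes. With limma over 6129 features and Benjamini-Hochberg (BH) adjustment, 5 of 8 members were called higher and 1 lower at an adjusted p below 0.05. The background was high, as 77.1% of all features were called, 36.5% higher and 40.6% lower. The median of the members' WT means was 2.46, beside -0.042 over all features.

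**Figure D1:**
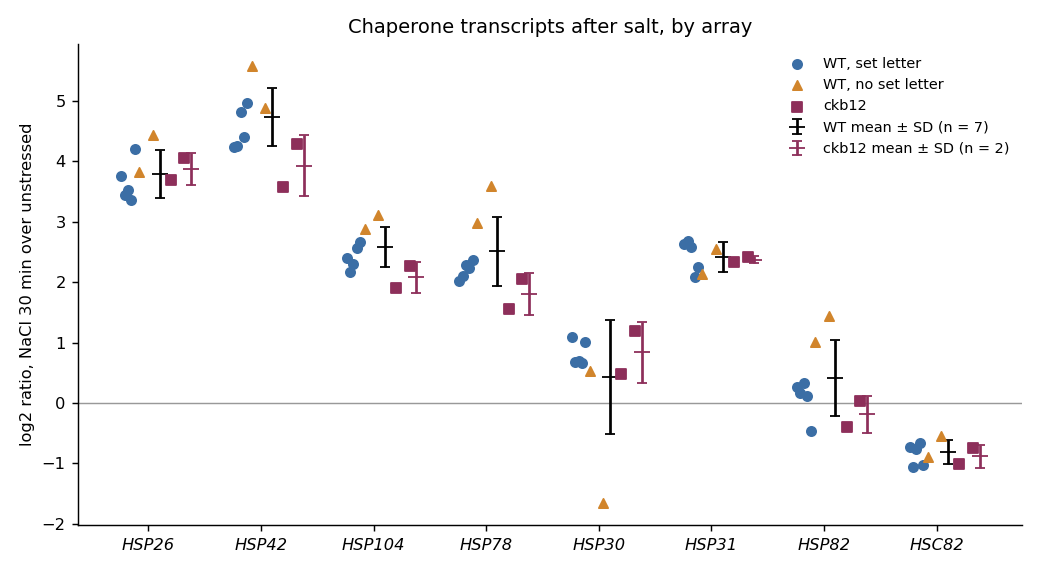
Log2 ratios (salt over unstressed, y axis) of the 8 members (x axis) on each array. Circles are WT arrays with a set letter, triangles WT arrays without one, squares ckb12 arrays, and bars mean ± SD (n = 7 WT, n = 2 ckb12). HSP42 and HSP26 lie highest, HSC82 lies below 0 on all 9 arrays, and a single WT value of HSP30, at -1.66, lies far below the others.

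HSP42, for the small heat shock protein that is also active in unstressed cells, had log2 ratios of 5.58, 4.89, 4.24, 4.25, 4.82, 4.41 and 4.97 on WT replicates 1, 2, 8, 9, 10, 11 and 12. It averaged 4.74 ± 0.48 (SD, n = 7), a 26.7-fold rise with an adjusted p of 1.29e-09 (limma, BH). It ranked 41 of 6129 features by WT mean, the highest rank among the members. In ckb12 its values were 3.57 and 4.29, the first of them below every WT value and the second within the WT range.

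HSP26, whose protein forms large oligomers that come apart on heating, had WT log2 ratios of 3.83, 4.44, 3.77, 3.44, 3.52, 3.36 and 4.20 in the same order of replicates. The mean of 3.79 ± 0.40 (SD, n = 7) was a 13.9-fold rise (adjusted p 1.85e-09, limma with BH) and ranked 78. Its ckb12 values of 3.69 and 4.07 both fell inside the WT range.

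HSP104, the disaggregase of cytosol and nucleus, had WT log2 ratios of 2.88, 3.11, 2.40, 2.18, 2.30, 2.56 and 2.67. It averaged 2.58 ± 0.33 (SD, n = 7), a 6.0-fold rise, with an adjusted p of 8.28e-09 (limma, BH). The ckb12 values were 1.90, below every WT value, and 2.26, within the WT range.

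HSP78, for the mitochondrial disaggregase, had WT log2 ratios of 2.98, 3.60, 2.03, 2.10, 2.28, 2.23 and 2.37. The first 2 of these, from the arrays without a set letter, stood above the other 5. The mean was 2.51 ± 0.57 (SD, n = 7), a 5.71-fold rise, with an adjusted p of 3.32e-07 (limma, BH). In ckb12 HSP78 had 1.56, below every WT value, and 2.05, within their range.

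HSP31, of the DJ-1 family and able to detoxify methylglyoxal, had WT log2 ratios of 2.14, 2.54, 2.63, 2.67, 2.59, 2.08 and 2.25. It averaged 2.42 ± 0.25 (SD, n = 7), a 5.34-fold rise (adjusted p 3.26e-09, limma with BH), with 2.33 and 2.41 in ckb12, inside the WT range. Its paralogues HSP32 (YPL280W), HSP33 (YOR391C) and SNO4 (YMR322C) had no value on WT replicate 2 and averaged 3.18 ± 0.48, 3.15 ± 0.83 and 3.26 ± 0.85 on the other 6 WT arrays (SD, n = 6). In a fit that kept features with missing values, all 3 rose (adjusted p 5.15e-07, 1.28e-05 and 1.19e-05, limma with BH). These 3 genes are near-identical copies, and how the authors assigned tiles to copies is not given in the sources used here, so their separate values are uncertain.

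HSP30, for a membrane protein that restrains the proton pump Pma1 under stress, had WT log2 ratios of 0.53, -1.66, 1.09, 0.68, 0.69, 0.66 and 1.02. The value of WT replicate 2 was the only one below 0, and the other 6 lay within 0.53 to 1.09. The mean of 0.43 ± 0.94 (SD, n = 7) did not pass (adjusted p 0.189, limma with BH), and its SD stood at percentile 99.0 of all features. Without WT replicate 2 the mean was 0.78 and passed, with an adjusted p of 3.86e-05 (limma, BH). The ckb12 values of 0.48 and 1.20 did not pass either, at an adjusted p of 0.182 (limma, BH), but did at 0.00287 when WT replicate 2, which shares in the estimate of spread, was left out. PMA1 (YGL008C), for the pump itself, fell to a WT mean of -2.12 ± 0.18 (SD, n = 7), below 0 on each array, with an adjusted p of 2.44e-09 (limma, BH). On WT replicate 2 PMA1 was at -1.97, inside the range of the other WT arrays.

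The HSP90 genes parted. HSC82, the copy expressed at a high level in unstressed cells, had WT log2 ratios of -0.90, -0.54, -0.73, -1.06, -0.76, -0.66 and -1.02. All 7 lay below 0, and the mean of -0.81 ± 0.19 (SD, n = 7) was a 1.75-fold fall with an adjusted p of 4.14e-06 (limma, BH). HSP82, the strongly heat-inducible copy, had WT log2 ratios of 1.01, 1.44, 0.26, 0.16, 0.34, 0.12 and -0.46. Its mean of 0.41 ± 0.63 (SD, n = 7) had a 95% interval of -0.02 to 0.84 and an adjusted p of 0.0742 (limma, BH). Without WT replicate 12, the only WT array with a value below 0, the mean was 0.56 and passed at 0.0155 (limma, BH). Without WT replicate 2 or 1, the highest values, it was 0.24 and 0.31 and did not pass (0.194 and 0.188, limma). In ckb12 HSP82 had -0.40 and 0.026 and HSC82 had -1.02 and -0.75, all within the WT ranges. The coding sequences of this pair are nearly identical, and the assignment of tiles to each copy is not given in the sources used here, so their separate ratios are uncertain.

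Changes of 2 genes on the same array were compared for 4 pairs, with an exact 2-sided sign-flip permutation test over the 7 WT arrays, for which 0.0156 is the smallest p that 128 flips allow. The change of HSP82 lay above that of HSC82 on all 7 arrays, by 1.22 ± 0.54 on the log2 scale (SD, n = 7, exact p 0.0156, adjusted over 4 pairs 0.0208). The difference ranged from 0.56 on WT replicate 12 to 1.98 on WT replicate 2. HSP26 changed less than HSP42 on all 7 arrays, by -0.94 ± 0.47 (SD, n = 7, exact p 0.0156, adjusted 0.0208). HSP104 exceeded HSP82 on all 7, by 2.17 ± 0.48 (SD, n = 7, exact p 0.0156, adjusted 0.0208). For these pairs the sign on every WT array followed from the values given above, so the smallest p was fixed by them. The pairs were also chosen with earlier results of these data known, and these p-values add no independent support. The change of HSP104 did not differ from that of HSP78 beyond the spread, with a mean difference of 0.072 ± 0.31 (SD, n = 7, exact p 0.578, adjusted 0.578) and 5 of 7 arrays above 0. The pooled value joins 5 arrays with a set letter, all above 0 at 0.014 to 0.38, and 2 without one, both below 0 at -0.099 and -0.49.

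On the ckb12 arrays the same differences were 0.61 and 0.77 for HSP82 minus HSC82, 0.35 and 0.22 for HSP104 minus HSP78, and 2.31 and 2.24 for HSP104 minus HSP82, all within the range of the WT arrays. HSP26 minus HSP42 was 0.12 and -0.22 in ckb12, and both values lay above all 7 WT values, which ranged from -1.76 to -0.45. On ckb12 replicate 1 HSP26 was the highest of the 8 genes, whereas HSP42 was the highest on the other 8 arrays. Whether this pair differs between strains was not tested. Among single features 17.4% had both ckb12 values below all 7 WT values or both above them, and the share among pairs was not computed.

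**Figure D2:**
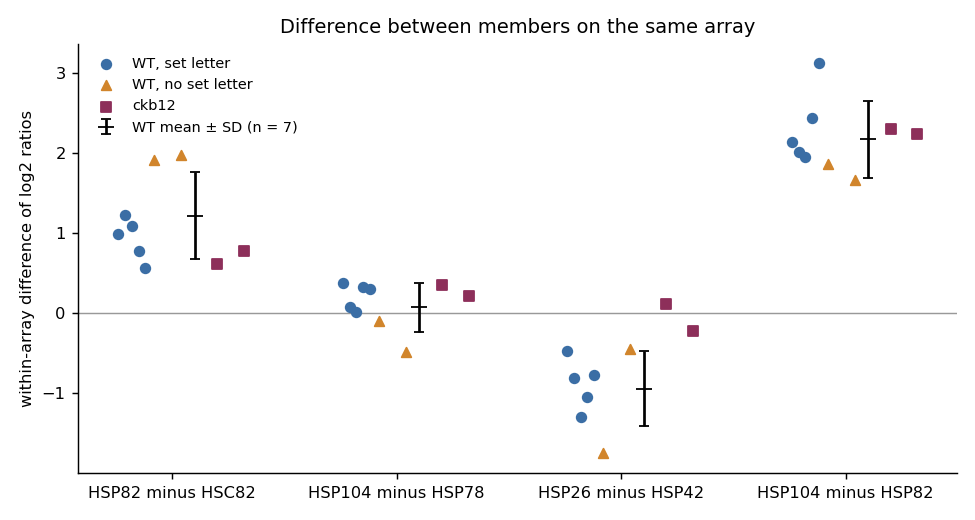
Within-array differences of log2 ratios (y axis) for 4 pairs of members (x axis). Circles are WT arrays with a set letter, triangles WT arrays without one, squares ckb12 arrays, and bars the WT mean ± SD (n = 7). HSP82 minus HSC82 is above 0 on every array, HSP104 minus HSP78 lies around 0, and the ckb12 squares of HSP26 minus HSP42 lie above all WT points.

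In ckb12 the same 5 genes rose and HSC82 fell as in WT (limma group-means model of 9 arrays, in which the 2 strains share the estimate of spread). The means were 3.93 ± 0.51 for HSP42, 3.88 ± 0.27 for HSP26, 2.37 ± 0.06 for HSP31, 2.08 ± 0.25 for HSP104, 1.80 ± 0.35 for HSP78 and -0.88 ± 0.19 for HSC82 (SD, n = 2). Their adjusted p-values ran from 1.64e-07 for HSP26 to 0.000564 for HSP78 (limma, BH). Across all features 63.0% were called in ckb12, 27.4% higher and 35.7% lower. HSP82 averaged -0.19 ± 0.30 (SD, n = 2) with an adjusted p of 0.66 (limma, BH), and its mean was above 0 without ckb12 replicate 1.

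The difference between the strains asks whether the CK2 regulatory subunits bear on the size of these responses. None of the 8 members was called, either within sets A and B (4 arrays, set letter as a block), where 0.0152% of 6600 features were called, or over all 9 arrays, where 1.14% of 6129 were called (limma, BH). At an unadjusted p below 0.05 the members numbered 0 of 8 in the paired fit, where 16.6% of features fell below it, and 1 of 8, HSP42, over 9 arrays, where 15.3% did. No member was called in any of the alternative settings of either strain comparison. A rule for duplicates, with both ckb12 arrays beyond the WT mean by over 2 WT SD on the same side, held for 7.59% of features and for none of the members. No member had both ckb12 values below all 7 WT values or both above them, as 17.4% of features did.

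The sets did not run alike. In set A all 8 members had a lower ratio in ckb12 than in the paired WT, with a median difference of -0.48, beside 58.5% of all features that were lower and a median of -0.057 over them. In set B 3 members were lower and 5 higher, with a median of 0.062, beside 54.4% of features that were lower and a median of -0.042. HSP31 differed by -0.30 and -0.26, HSP82 by -0.66 and -0.14 and HSP78 by -0.47 and -0.056, and these were the only members lower in both sets. The difference of HSP26 was -0.077 in the first set and 0.62 in the other, that of HSP30 -0.61 and 0.52, and that of HSC82 -0.28 and 0.32. HSP42 differed by -0.67 and 0.036 and HSP104 by -0.50 and 0.088.

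Against all 7 WT arrays HSP42 differed by -0.81, with a 95% interval of -1.54 to -0.07 and an adjusted p of 0.279 (limma, BH). The value was -0.45 without ckb12 replicate 1 and -1.17 without ckb12 replicate 2, with adjusted p-values of 0.718 and 0.544 (limma). HSP78 differed by -0.71 (interval -1.52 to 0.10), HSP82 by -0.60 (-1.48 to 0.28) and HSP104 by -0.50 (-1.01 to 0.01), with adjusted p-values of 0.389, 0.512 and 0.333 (limma, BH). The intervals of HSC82, at -0.071 (-0.43 to 0.29), and HSP31, at -0.046 (-0.45 to 0.36), were the narrowest. HSP26 differed by 0.083 (-0.52 to 0.68) and HSP30, the least certain, by 0.41 (-0.89 to 1.71). Within sets A and B alone the differences were smaller in size for HSP42 (-0.32), HSP78 (-0.26), HSP82 (-0.40) and HSP104 (-0.21). Those of HSP31 (-0.28) and HSP26 (0.27) were larger in size, and those of HSP30 (-0.044) and HSC82 (0.017) had the other sign. The size of the paired differences depended on scaling. With arrays scaled to an equal median absolute deviation they were -0.71 for HSP42, -0.52 for HSP31, -0.45 for HSP78, -0.41 for HSP104 and -0.41 for HSP82. After quantile normalization that of HSP42 was -0.19. None of these was called.

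**Figure D3:**
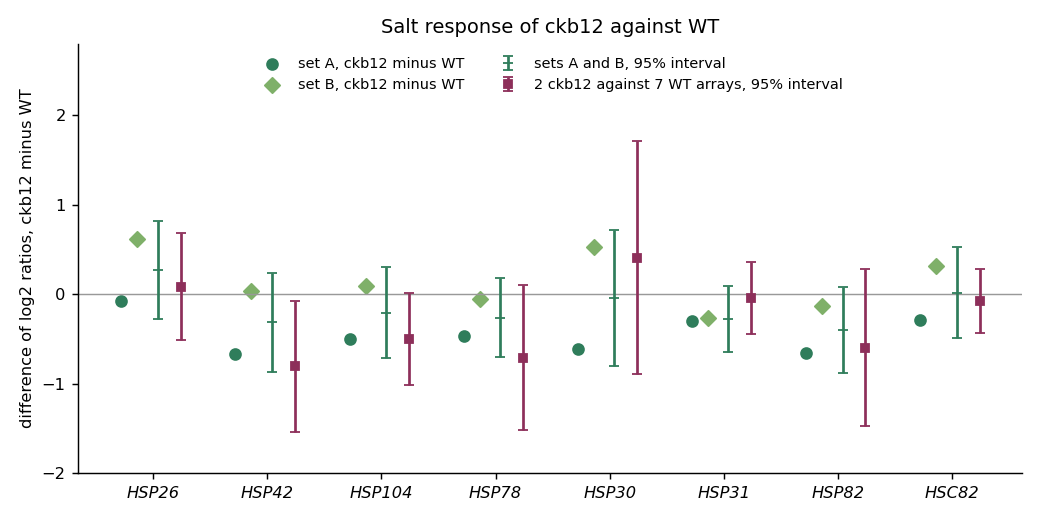
Differences of log2 ratios, ckb12 minus WT (y axis), for the 8 members (x axis). Circles and diamonds are sets A and B, dashes the mean of both sets and squares 2 ckb12 against 7 WT arrays, each of the last 2 with the 95% interval from limma. All 8 circles lie below 0, and all 8 paired intervals span 0.

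WT arrays with and without a set letter were compared because the letter is the only label that groups arrays besides strain. The 5 lettered WT arrays carried a different letter each, so the comparison pools separate sets. HSP82 was lower on the 5 lettered arrays, at 0.084 ± 0.31 (SD, n = 5) against 1.23 (1.01 and 1.44) on the other 2, and the groups did not overlap. The same held for HSP78, at 2.20 ± 0.14 (SD, n = 5) against 3.29 (2.98 and 3.60), and for HSP104, at 2.42 ± 0.20 (SD, n = 5) against 2.99 (2.88 and 3.11). These were 3 of 8 members with unlettered arrays above all lettered ones, where 13.2% of all features had this order. HSP26, HSP42, HSP31 and HSC82 overlapped between the groups. HSP30 did not overlap either, being lower on both unlettered arrays than on any lettered one. The share of all features with this opposite order was not counted.

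In limma with Benjamini-Hochberg adjustment 0 of 8 members were called between these groups, beside 0.457% of features. Of the members, 5 of 8 had an unadjusted p under 0.05, which 13.2% of features had. The differences, lettered minus unlettered, were -1.14 for HSP82 (adjusted p 0.102), -1.09 for HSP78 (0.0515) and -0.57 for HSP104 (0.218). HSP78 lay at the threshold and passed after quantile normalization (-1.17, adjusted p 0.0229, limma) and after scaling to an equal median absolute deviation (-1.21, 0.0378). It also passed with ORF-style names only (-1.09, 0.0347) and without WT replicate 12 (0.0241, limma), but not without any other single lettered array. Without WT replicate 1 or 2, which leaves 1 unlettered array, the difference of HSP78 was -1.40 and -0.77. HSP82 passed without WT replicate 12 (-1.01, adjusted p 0.0206, limma), but not without any other single array. The difference of HSP30 was 2.48 without WT replicate 1, where WT replicate 2 alone stood for the unlettered arrays.

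The WT means on the 5 lettered arrays alone, a choice made after the values were seen, were 4.54 for HSP42, 3.66 for HSP26, 2.45 for HSP31, 2.42 for HSP104, 2.20 for HSP78, 0.83 for HSP30, 0.084 for HSP82 and -0.85 for HSC82. Of these, all but HSP82 were called, where 73.6% of features were (limma, BH). HSP82 had an interval of -0.20 to 0.37 and an adjusted p of 0.553 (limma). By mean HSP31 here stood above HSP104 and HSP78, the reverse of the order over 7 arrays. The 95% intervals of HSP31 (2.20 to 2.69), HSP104 (2.21 to 2.64) and HSP78 (2.02 to 2.39) overlapped, so this order is uncertain. The difference of HSP82 minus HSC82 was 0.93 ± 0.26 on the lettered arrays (SD, n = 5) and 1.91 and 1.98 on the others.

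The partners of these chaperones did not move as a block. The HSP90 co-chaperones, which load clients and time the ATPase cycle, gave 1 of 12 genes higher and 7 lower in WT, with a median of -0.49, beside 36.5% of all features higher, 40.6% lower and a median of -0.042. CNS1, for an essential co-chaperone, fell most, at -2.43 ± 0.36 (SD, n = 7), and PPT1, the phosphatase of the HSP90 machine, was at -2.04 ± 0.09 (SD, n = 7). SGT1, which links HSP90 to kinetochore assembly, was the highest at 0.24 ± 0.20 (SD, n = 7, adjusted p 0.0182, limma with BH), a call lost without WT replicate 8, 10 or 11, with adjusted p-values of 0.0514, 0.055 and 0.0526 (limma). For STI1, which bridges HSP70 and HSP90, the WT mean was 0.030 ± 0.28 (SD, n = 7) and the ckb12 mean -0.58 ± 0.03 (SD, n = 2). The strain difference of STI1 was not called. It was -0.61 over 9 arrays (adjusted p 0.174) and -0.42 in sets A and B (adjusted p 0.324, limma with BH).

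The HSP70 machine that works with Hsp104 gave 4 of 9 genes higher and 5 lower in WT, with a median of -0.48, against the same background of 36.5% and 40.6%. SSA4, the stress-inducible HSP70, was the highest at 3.96 ± 0.46, followed by the exchange factor SSE2 at 2.71 ± 0.30, SSA3 at 1.28 ± 0.22 and the J-domain protein SIS1 at 0.74 ± 0.24 (SD, n = 7). The constitutive genes SSA1 and SSA2 were at -0.48 ± 0.26 and -0.72 ± 0.20, their near identity leaving the separate values uncertain, and SSE1 was at -0.90 ± 0.17 (SD, n = 7). YDJ1, the main cytosolic J-domain partner, fell most, at -1.77 ± 0.12 (SD, n = 7). In ckb12 the counts were again 4 higher and 5 lower, where 27.4% and 35.7% of all features were.

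The mitochondrial partners of Hsp78 numbered 1 of 5 higher and 4 lower in WT, where 77.1% of all features were called in either direction. MDJ1, the matrix J-domain protein, rose by 1.0 ± 0.37, whereas SSC1, the matrix HSP70, was at -1.19 ± 0.17, the chaperonin subunits HSP60 and HSP10 at -1.21 ± 0.19 and -0.79 ± 0.35, and the exchange factor MGE1 at -0.90 ± 0.41 (SD, n = 7). None of these 5 genes had an adjusted p above 0.000116 (limma, BH). MDJ1, like HSP78, was higher on both unlettered arrays than on any lettered one, as were SIS1 and MSN2, which made 3 of the 30 partner genes, beside 13.2% of features. Transcripts of the regulators rose by 1.26 ± 0.35 for MSN2, 0.72 ± 0.35 for MSN4 and 0.56 ± 0.19 for HSF1 (SD, n = 7). Each was called higher in WT and in ckb12, where 36.5% and 27.4% of all features were.

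**Figure D4:**
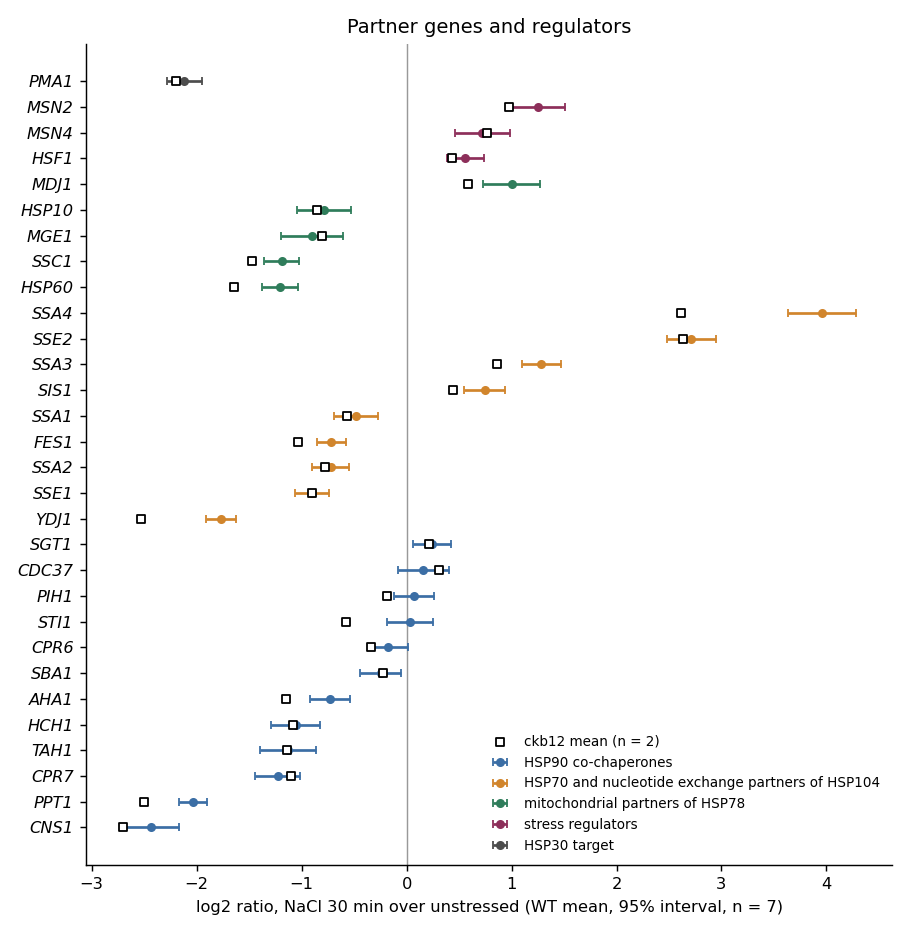
Mean WT log2 ratios (x axis, with the 95% interval from limma, n = 7) of 30 partner genes and regulators (y axis), coloured by list, with ckb12 means (n = 2) as open squares. SSA4 and SSE2 lie highest and CNS1, PMA1 and PPT1 lowest. The interval is that of the mean of 7 WT arrays and leaves out the spread of the ckb12 mean. A square outside it is therefore not a call between strains.

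Of the 30 partner genes with a value on all arrays, YDJ1 alone was called between strains over 9 arrays, where 1.14% of all features were. Its log2 ratios were -2.61 and -2.44 in ckb12, below all 7 WT values of -1.92 to -1.65, a difference of -0.76 with an adjusted p of 0.023 (limma, BH). The call was lost after quantile normalization (-0.59, 0.109), with arrays scaled to an equal median absolute deviation (-0.64, 0.10) and without WT replicate 8 (0.0582) or either ckb12 array (0.205 and 0.245), and the paired difference of -0.74 did not pass (adjusted p 0.159, limma). SSA4, chosen after its values were seen, had ckb12 ratios of 2.58 and 2.65 against WT values of 3.38 to 4.58, a difference of -1.34 with an adjusted p of 0.0622 (limma, BH). Within sets A and B the difference was -1.02 and did not pass either (adjusted p 0.126, limma). The adjusted p over 9 arrays crossed 0.05 without WT replicate 10 or 12 (0.0491 and 0.0395), with equal median absolute deviations (0.0213) and with ORF-style names only (0.0489, limma). It reached 0.271 and 0.422 without ckb12 replicate 1 or 2 and stayed above 0.05 without any other single array and after quantile normalization (0.0643, limma).

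The feature closest to each member over the 9 arrays, by root-mean-square (RMS) difference of log2 ratios, gives a sense of which responses were of like size and variation. For HSP104 it was NFG1 (YLR042C), at an RMS difference of 0.184, and NFG1 was also the closest to HSP78, at 0.273. HSP42 lay closest to GRE2 (0.245), for a stress-induced reductase, HSP26 to YGP1 (0.256), for a secreted glycoprotein, and HSP31 to UGA2 (0.157), for succinate semialdehyde dehydrogenase. HSP30 lay closest to YOR365C (0.249), HSP82 to KAR4 (0.288), for a transcription factor of mating and meiosis, and HSC82 to PAP2 (0.0969), for a noncanonical poly(A) polymerase. No member was the closest feature of another.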

How the data were processed

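The deposited values are log2 ratios of salt-treated over unstressed cDNA, which the authors made by hybridising labelled cDNA to whole-genome tiled NimbleGen arrays and normalizing the signals. The log2 scale and the direction come from the methods and labels and are not written in the table. The combination of tiles into features, background correction, dim-feature filters and genome build are not given in the sources used here. Dyes were the same on all arrays in the labels, although the methods mention reversed orientation for some. Symbols came from a RefSeq table of R64, which matched 6023 of 6942 IDs.

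Fits used R 4.3.3 and limma 3.58.1 with Benjamini-Hochberg adjustment over all features of the fit, those with a value on all 9 arrays or, for the paired sets, on 4. Fits were run on simulated data with known changes. The simulated noise was independent between features and arrays, so effects of a set were not covered. The methods call the cultures biological replicates. Pairing came from set letters. The replicate numbers shared by the strains mark different sets and pair nothing. Same-set deviations correlated at -0.0433 across features. Named genes were the 8 members, the closest feature to each, the extremes of 6 partner lists (33 genes) and every gene of lists of 5 or fewer. PPT1, STI1, SSE2, SSA1, SSA2, SSA3, SIS1, SSE1 and SSA4 were added after their values were seen. The members, lists and tests were chosen with earlier results of these data known. Alternatives covered scaling, features fitted, variance prior, blocks, call rules and single arrays left out.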

Additional observations from a re-analysis of the deposited data

Results flagged for a closer look

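HSP30 on WT replicate 2 had a log2 ratio of -1.66, far from the other 6 WT arrays. The gap to its nearest neighbour was 0.796 of the whole range, above the 95% critical value of Dixon's test for 7 samples, and chance passes about 5% of such groups. The strain difference of YDJ1 over 9 arrays was -0.76 on the log2 scale and passed the test of the difference (adjusted p 0.023, limma with Benjamini-Hochberg). Within sets A and B it was -0.74 and did not pass (adjusted p 0.159, limma), and the call over 9 arrays was lost after quantile normalization (0.109), with equal median absolute deviations (0.10) and without WT replicate 8 (0.0582) or either ckb12 array (0.205 and 0.245). The causes were not tested.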

How the results depend on the processing

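When calls also had to exceed a log2 change of 1, those over all features numbered 1761 in WT and 1945 in ckb12. The paired count of 1 became 20 after quantile normalization, 572 with ORF-style names only, 178 with robust eBayes and 0 with no replicate block. No member was called with the set block or without it. Leaving an array out of the paired fit left no residual degrees of freedom, so it was not run. Over 9 arrays the count of 70 became 46 with arrays scaled to equal median absolute deviation (MAD), 465 by the 2 SD rule, and 0 to 142 with single arrays left out, 0 without either ckb12 array and 142 without WT replicate 12. Between WT arrays with and without a set letter it ranged from 6 (without WT replicate 2) to 108 (without WT replicate 12). There the count of members called was 1 after quantile normalization, with equal MAD and with ORF-style names only, and 0 to 2 with single arrays left out. A fit that leaves 1 array in an arm assumes that it varies like the others.

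The strain difference of HSP26 changed sign with equal MAD, to -0.077 in the paired sets and -0.12 over 9 arrays. With single arrays left out, signs changed for HSP82 in ckb12 (-0.40 to 0.026), for HSC82 and HSP26 between strains over 9 arrays (-0.21 to 0.064 and -0.10 to 0.27) and for HSC82 and HSP31 between WT arrays with and without a set letter (-0.31 to 0.052 and -0.10 to 0.30). None of these was called. The causes were not tested. The calls of HSP26, HSP42, HSP104, HSP78 and HSP31 in WT and ckb12 held under every alternative run, and that of HSC82 was lost only when a log2 change of 1 was required.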
